A study of Homo sapiens with 3 samples.

Results

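The outermost 2 Mb of the human autosomes held 1290 of the 23641 peaks of 8-oxo-7,8-dihydro-2'-deoxyguanosine (8-oxodG) that the authors listed for resting breast epithelial cells. A peak was counted here when its summit lay no more than 2 Mb from a chromosome end of the genome build hg18. The short-arm ends of chromosomes 13, 14, 15, 21 and 22 and all of chromosome X were left out, which left 39 ends, 17 on short arms and 22 on long arms. The position of the summit decided membership, and no measured height, width or enrichment entered the choice. The cells were MCF10A, an established non-tumorigenic human breast line, labelled as arrested in G0, meaning that they had left the cell cycle. The labels gave 3 samples of this 1 group, from 2 experiments, with no treatment and no second condition. The assay was DIP-seq, in which fragments of sonicated genomic DNA that an 8-oxodG antibody pulls down are sequenced. A single list of peaks stands for all 3 samples, so no value below has an error between samples, and the sequencing depth behind it is unknown here.

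8-oxodG forms when reactive oxygen species attack guanine, the base most easily oxidised, and cells remove it chiefly by base excision repair begun by the glycosylase OGG1. Human chromosomes end in tandem repeats rich in guanine, followed inwards by subtelomeres, patchworks of sequence blocks shared between several chromosomes. Beyond these lies unique sequence that at many ends is rich in genes and in guanine and cytosine. Copies shared between ends are hard to align uniquely, so mapping can lose or move signal there.

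As a group the ends carried more peaks per unit of sequence than the remainder of the autosomes. Density was 17 peaks per sequenced Mb at the ends (1290 peaks in 75.9 Mb), against 8.18 in the rest (21316 peaks in 2606 Mb). The ratio was 2.08, with a 95% interval of 1.96 to 2.20 (exact conditional interval). This interval and all others below cover counting error alone, and neighbouring peaks are not independent. Against the rest of the same arms, in the proportions of sequence that the ends have, the ratio was 1.82. Put as shares, the ends supplied 5.71% of autosomal peaks from 2.83% of the sequence. Against the sequence 2 to 10 Mb from the same ends, which belongs to the rest and had 14.3 peaks per Mb, the ratio was 1.19 (1.11 to 1.26). The stretch that follows the ends was thus itself denser than the autosomes as a whole. Base composition and uniqueness of the sequence were not tested, since no genome of this build was used here.

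Single ends differed far more than the average shows. The number of peaks per end ran from 7 to 60 with a mean of 33.1 ± 13.9 (SD over 39 ends), and its variance was 5.83 times its mean. Density differed 9.44-fold between the highest and the lowest end. The same spread over 2 Mb windows of all autosomes is not given here, so it is not shown to be particular to the ends. In 29 of 39 ends the 95% Poisson interval on density lay wholly above the density of the rest, in 3 it lay wholly below, and in 7 it included that density. Among 1345 windows of 2 Mb tiled over all autosomes, the same rule placed 15% above and 15.8% below. Set against the sequence 2 to 10 Mb inwards, 11 ends stood above and 5 below, where the same rule placed 4.68% of all windows above and 71.1% below.

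**Figure D1:**
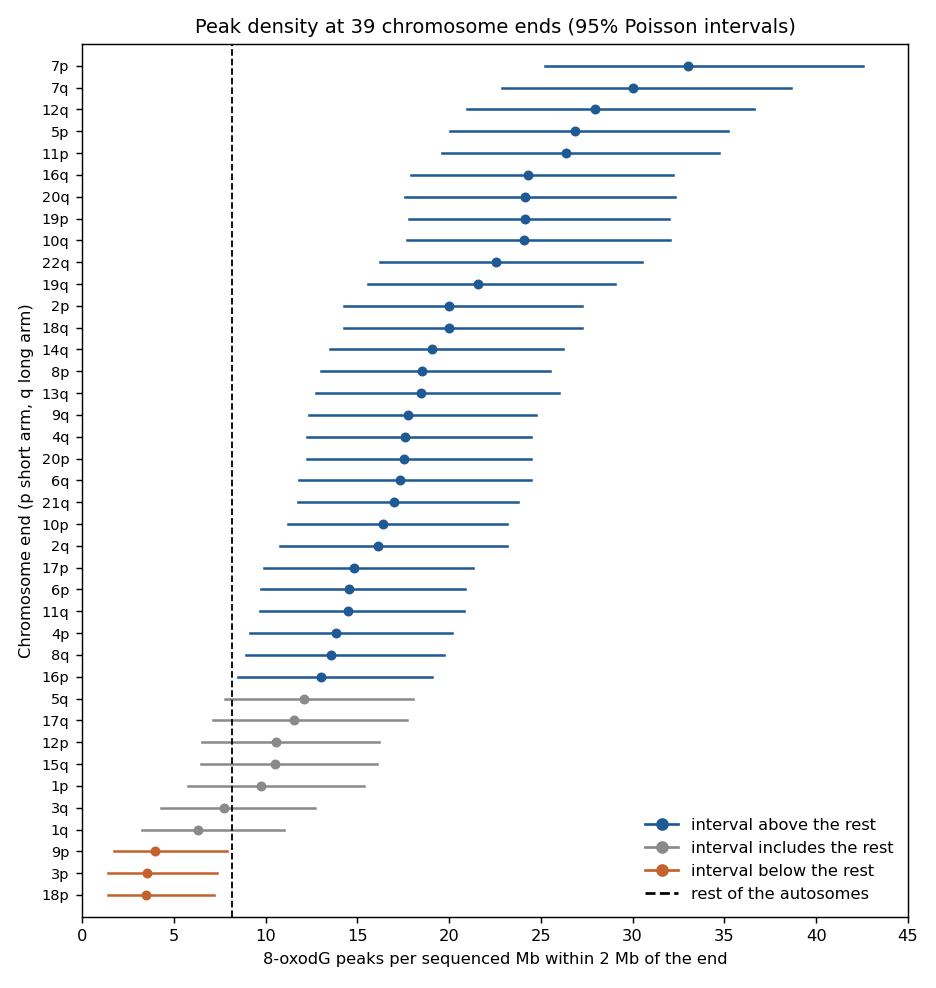
Peaks per sequenced Mb (x axis) in the outermost 2 Mb of each of 39 chromosome ends (rows), with 95% Poisson intervals as horizontal lines and the density of the rest of the autosomes, 8.18, as a dashed line. The ends range from 33.0 in 7p to 3.50 in 18p, and 29 intervals lie above the dashed line.

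Both ends of chromosome 7 headed the order. The short-arm end, 7p, had 60 peaks in 1.82 Mb, or 33.0 per Mb (25.2 to 42.5), and the long-arm end, 7q, had 60 peaks in 2 Mb, or 30.0 (22.9 to 38.6). Together they averaged 31.4 per Mb, against 8.09 on the rest of chromosome 7, a ratio of 3.89 (3.20 to 4.69). Next came 12q at 27.97, 5p at 26.8, 11p at 26.4 and 16q at 24.3. The intervals of these 6 ends overlapped one another, so their order among themselves is not resolved at these counts. As background, the outermost band of 5p, 5p15.33, carries the telomerase gene TERT, and that of 11p, 11p15.5, an imprinted cluster with IGF2. Gene positions on hg18 were not checked, so whether either gene lies within the counted 2 Mb is not known here. No peak is assigned to a gene.

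At the other extreme, 3 short-arm ends were sparse. The end of 18p had 7 peaks in 2 Mb, or 3.50 per Mb (1.41 to 7.21), 3p had 7 in 1.96 Mb, or 3.56 (1.43 to 7.34), and 9p had 8 in 2 Mb, or 4 (1.73 to 7.88). These 3 intervals did not overlap those of the 6 densest ends, but both sets were picked by density, so this is a description only. Above them stood 1q with 12 peaks (6.32 per Mb), 3q with 15 (7.71) and 1p with 18 (9.73), whose intervals included the density of the rest. The outermost band of 3p, 3p26.3, was the darkest staining of all 39 in Giemsa, of class gpos50. Those of 4q and 19q were of class gpos25, at 17.6 and 21.6 peaks per Mb, and the other 36 were unstained.

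Whether an end stood out from its own chromosome arm was a separate comparison. Density was higher at the end than in the rest of the same arm in 33 of 39 ends, and in 25 the interval of the ratio lay above 1. No interval lay below 1. Of all 2 Mb windows of these arms, 37.8% were denser than the rest of their arm, 12.3% had an interval above 1 and 11.4% one below. The median ratio was 1.72, and the highest were 4.16 in 7p (3.12 to 5.46), 3.90 in 5p (2.85 to 5.25) and 3.83 in 11p (2.80 to 5.16). In 4q, an arm of low density at 5.17 peaks per Mb, the end reached 3.40 times that level (2.35 to 4.78). The 6 ends with a ratio below 1 were 16p (0.887), 9p (0.872), 1q (0.791), 19q (0.743), 3p (0.590) and 18p (0.558). Chromosome 19, known as the most gene-rich, had 22.8 peaks per Mb at its ends, against 25.8 in its remainder, a ratio of 0.885 (0.708 to 1.09).

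Both ends of a chromosome were also set against each other. Of the 17 chromosomes with both ends counted, 6 had a ratio between short-arm and long-arm end whose interval did not include 1. Among all pairs of 2 Mb windows on opposite arms of these chromosomes the share was 26.4%, so the count at the ends is near that background. The long-arm end was the denser in chromosomes 9, 12, 16 and 18, and the short-arm end in chromosomes 5 and 11. The widest contrast was on chromosome 18, where 18p had 7 and 18q 40 peaks in 2 Mb each, a ratio of 0.175 (0.0661 to 0.395). On chromosome 9, 9p had 4 and 9q 17.8 peaks per Mb (ratio 0.225, 0.0902 to 0.494). Across the 17 chromosomes the rank correlation of both ends was 0.103, given as a description of points that share 1 list. Short-arm ends as a class held 15.8 peaks per Mb (14.5 to 17.2), against 17.9 (16.7 to 19.2) in long-arm ends, with overlapping intervals.

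Density did not climb steadily towards the end of the chromosome. It was 13.4 peaks per Mb in the outermost 250 kb (117 peaks, 11.06 to 16.02) and 10.7 in the outermost 100 kb (33 peaks, 7.33 to 14.96). From 500 kb to 2 Mb it was 17.9 (16.8 to 18.99). The interval of the outermost 250 kb did not overlap that of this inner part, but it did overlap those of single steps, such as 15.1 from 250 to 500 kb (12.7 to 17.8). Beyond the 2 Mb limit the density stayed at 18.5 from 2 to 4 Mb (17.6 to 19.5) and was 12.96 from 4 to 10 Mb (12.5 to 13.4). The limit of 2 Mb therefore does not mark a step in these data, whereas the interval at 4 to 5 Mb, 13.6 (12.5 to 14.8), lay below that at 3 to 4 Mb, 18.8 (17.5 to 20.2). The outer Mb held 574 peaks and the inner Mb 716, and 21 of 39 ends had more in the inner, 15 more in the outer and 3 equal numbers.

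**Figure D2:**
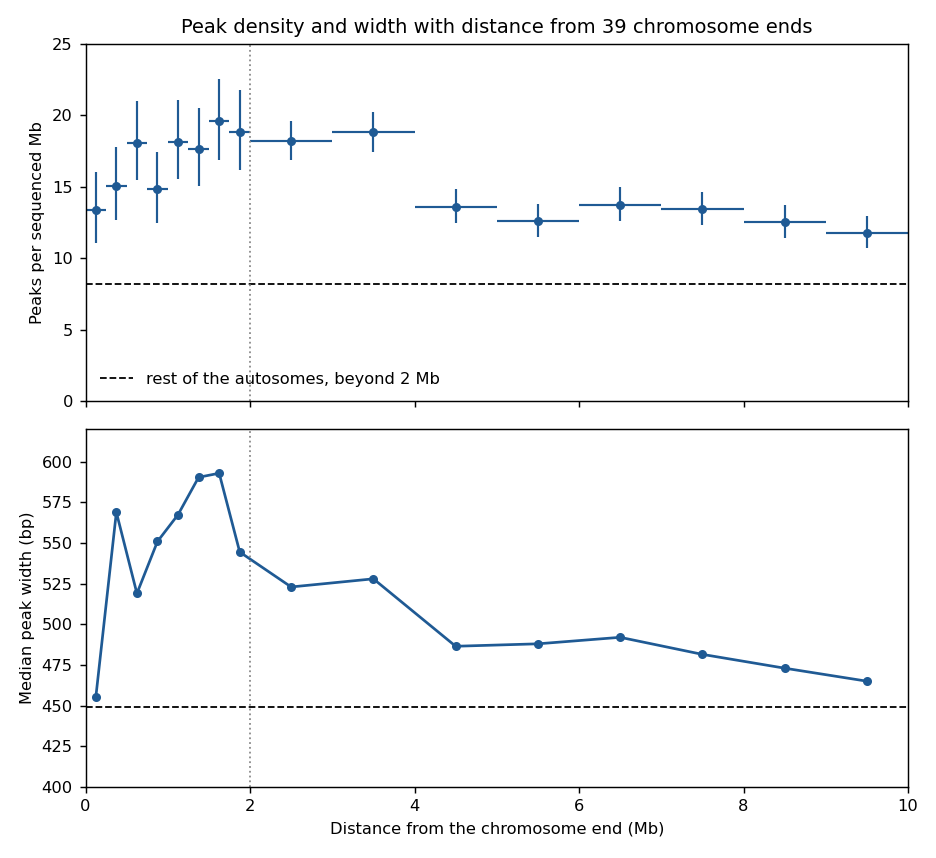
Peaks per sequenced Mb with 95% Poisson intervals (top) and median peak width in bp (bottom) against distance in Mb from the end, pooled over 39 ends, in steps of 250 kb to 2 Mb and of 1 Mb beyond. Dashed lines give the rest of the autosomes and the dotted line the 2 Mb limit. Density is 13.4 in the first step, 18.8 from 3 to 4 Mb and 13.6 from 4 to 5 Mb.

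Peaks at the limit itself show how arbitrary it is. Just inside lay a peak of 450 bp on 12p with a pileup of 24 fragments, 1999008 bp from the end, and a peak of 271 bp on 16q with a pileup of 11, at 1998805 bp. Just outside lay a peak of 267 bp on 10q with a pileup of 14, at 2001998 bp, and a peak of 503 bp on 20p with a pileup of 39, at 2002808 bp. Across the 39 ends, density within 2 Mb and density from 2 to 4 Mb had a rank correlation of 0.592, a description over ends of 1 list. In 16 of 39 ends the outer 2 Mb were the denser. The greatest differences in either direction were in 7p (33.0 within 2 Mb, 16 from 2 to 4 Mb) and 8q (13.5 within 2 Mb, 34.7 from 2 to 4 Mb).

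In hg18, 17 of 39 ends had sequence up to the last base, and 3 of these had a peak within 1 kb of it. The nearest was on 10q (chromosome 10, 135374409 to 135374737), with its summit 185 bp from the end, a fold enrichment of 8.60 and a pileup of 26. On 11q a peak of 223 bp (134451929 to 134452151) had a summit 271 bp from the end, a pileup of 12 and a fold of 7.98. On 1p the first listed peak began at base 1 and ended at 476, with a summit at 318, a pileup of 18 and a fold of 7.39. All 3 folds lay between the lowest in the list, 7.001, and its median, 11.7. Next nearest were peaks on 19q at 32086 bp (pileup 26, fold 14.6) and on 4p at 37524 bp (pileup 43, fold 8.59). The median distance of the nearest peak over all ends was 111171 bp, and the greatest was 513694 bp, on 10p.

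Peaks near the ends were wider. The median width was 544 bp at the ends (524 to 567), against 449 bp in the rest (447 to 452), with quartiles of 399 and 795 bp against 361 and 574 bp. The intervals on medians are exact binomial ones. The difference was present at each quartile and grew towards the upper one. Peaks of 1 kb or more made up 15.6% of peaks at the ends (201 of 1290, exact binomial interval 13.6 to 17.7), against 5.02% in the rest (1070 of 21316, 4.73 to 5.32). The ratio of these shares was 3.10, and 1.66 against the sequence 2 to 10 Mb inwards, where 9.37% were this wide. Counted per Mb, peaks above 810 bp were 5.47 times as dense at the ends as in the rest (4.84 to 6.17), and peaks of 362 bp or less 1.57 times (1.38 to 1.79). Together the peaks covered 1.15% of the sequence at the ends, against 0.436% in the rest.

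Wide peaks were unevenly spread over the ends. Their share was higher than in the rest in 33 of 39 ends, and was greatest in 2q (11 of 29 peaks, 37.9%), 14q (12 of 38, 31.6%) and 16q (13 of 48, 27.1%). The same count over 2 Mb windows of all autosomes was not made, so the 33 ends have no background beside them. In 5 ends (15q, 1q, 9p, 3p and 18p) no peak reached 1 kb, which at 0 of 21 peaks in 15q allows a share of up to 14.3% and at 0 of 7 in 18p up to 42.9%. By distance, the share was 7.69% in the outermost 250 kb (9 of 117, 3.58 to 14.1), 15.1% from 250 kb to 1 Mb, 17.2% from 1 to 2 Mb, 12.1% from 2 to 4 Mb and 8.05% from 4 to 10 Mb. Median width was highest in 19p (728 bp), 11p (722 bp) and 16q (658 bp) and lowest in 3q (359 bp) and 3p (368 bp). Over the 39 ends, density and the share of wide peaks had a rank correlation of 0.617.

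**Figure D3:**
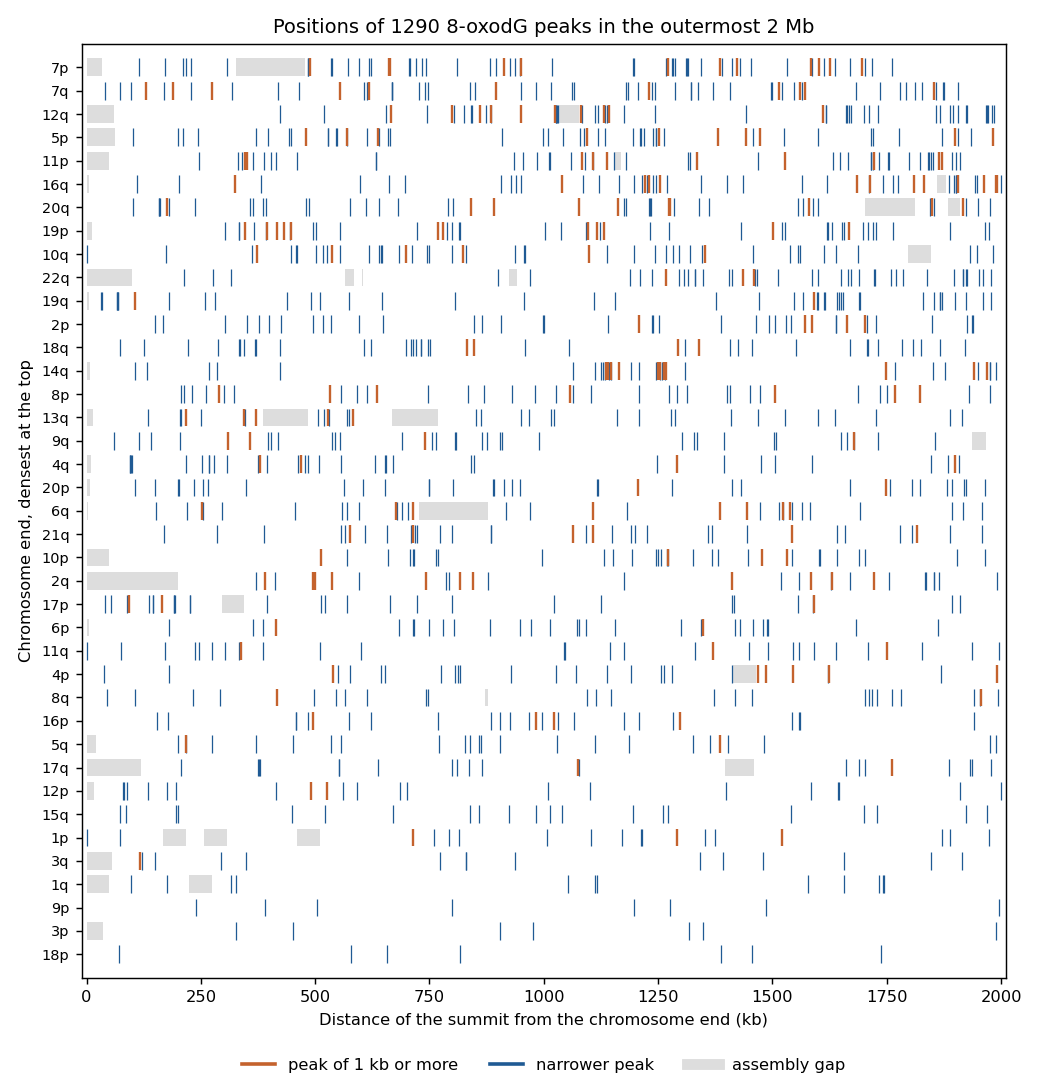
Position of each of the 1290 peaks by the distance of its summit from the chromosome end in kb (x axis), 1 row per end with the densest at the top. Orange marks peaks of 1 kb or more, blue narrower ones and grey bands assembly gaps. The map shows 12 wide peaks in 14q, 8 of them in 2 clusters beyond 1000 kb, and sparse rows for 9p, 3p and 18p.

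The widest peak at any end lay on 5p in 5p15.33 (chromosome 5, 1094241 to 1101978). It spanned 7738 bp and had a fold enrichment of 12.7 over a pileup of 49, and ranked 20 by width in the whole list. The others were 4007 bp on 16q (from 87111065, pileup 95), 3888 bp on 14q (from 104396062, pileup 75), 3452 bp on 8p (from 1822867, pileup 58) and 3025 bp on 1p (from 714086, pileup 73). Their fold enrichments were 30.9 on 16q, 27.8 on 14q, 11.2 on 8p and 14.1 on 1p, so the widest peaks lay on both sides of the median fold of the ends.

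Pileup, the number of fragments stacked at the summit, was also higher at the ends, and so was the background. The median pileup was 30 fragments at the ends (29 to 32), against 25 in the rest (24 to 25). The background at the summit, derived from pileup and fold enrichment, had a median of 1.26 fragments at the ends (1.195 to 1.26), against 0.975 in the rest (0.975 to 1.006). Fold enrichment, which sets pileup against that background, had a median of 11.9 at the ends (11.6 to 12.4), against 11.7 in the rest (11.6 to 11.8), with overlapping intervals. Median pileup exceeded that of the rest in 32 of 39 ends, median background in 31 and median fold in 24. How many 2 Mb windows of all autosomes would exceed the same medians was not counted, so these counts have no background beside them. Among listed peaks, ends thus differed from the rest of the autosomes in width and number far more than in enrichment over the local background. No listed peak had a fold below 7.001, so fold is compared only above that floor, which can draw both medians together. How far fold would differ without this floor was not tested. The values of the ends were not particular to the outermost 2 Mb. From 2 to 4 Mb the density was 18.5 peaks per Mb and the median width 525 bp. The median pileup there was 31, the background 1.26 and the fold 12.2.

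**Figure D4:**
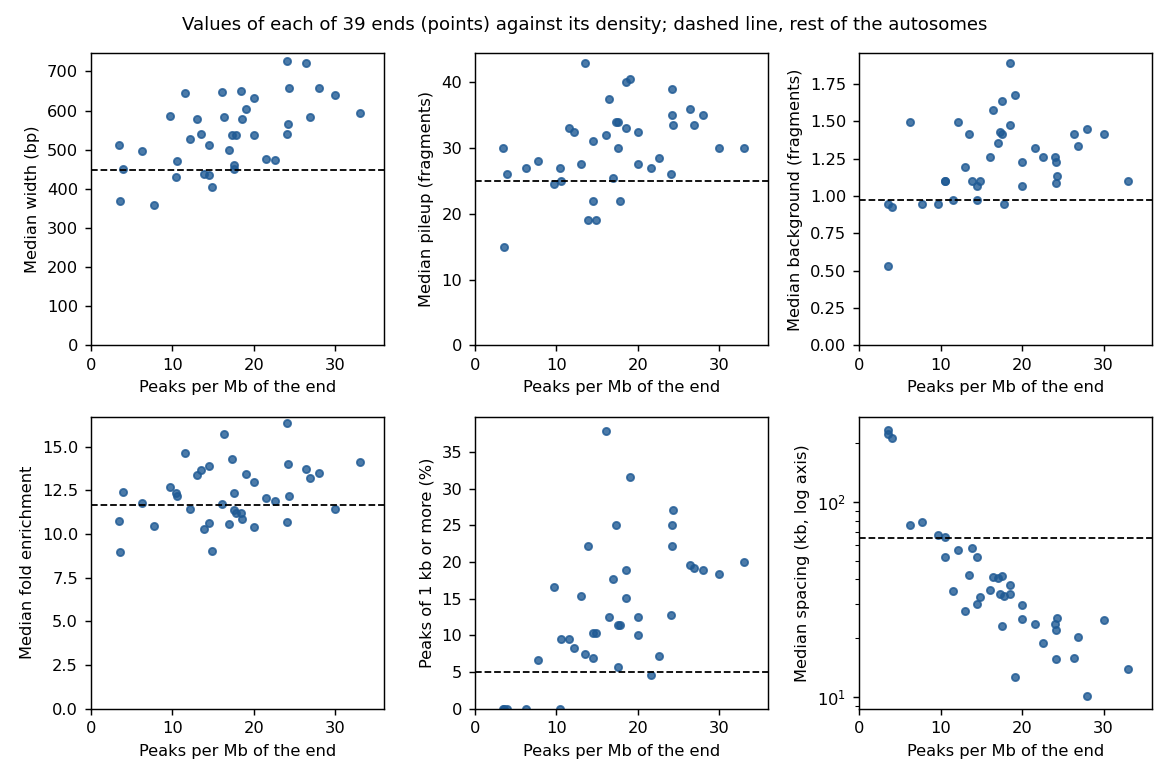
Median width (bp), pileup (fragments), background (fragments) and fold enrichment, the share of peaks of 1 kb or more (%) and the median spacing (kb, log axis) of each of 39 ends against its density, with the rest of the autosomes as dashed lines. Medians of width lie above the dashed line in 33 ends and of fold enrichment in 24. The same counts over windows of all autosomes were not made, so neither is shown to be particular to the ends.

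Among single ends, 8q had the highest median pileup, 43 fragments, followed by 14q (40.5) and 13q (40), and 3p the lowest, 15. Median background was highest in 8p, at 1.89 fragments, 14q (1.67) and 4q (1.64), and lowest in 3p, at 0.535. Median fold was highest in 19p (16.3), 10p (15.7) and 17q (14.6) and lowest in 3p (8.96) and 17p (9.04). The end of 3p was therefore low in number, height, background and enrichment alike. That of 18p was as sparse but had a median pileup of 30 and a width of 513 bp.

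Since background was higher at the ends, all autosomal peaks were also split into 5 classes by background at the summit. Background is known only at summits, so the peaks of each class were divided by all sequenced Mb of a part. The ratio of these values, ends over rest, was 1.84 (1.61 to 2.11) in the lowest class. It was 1.31 (1.12 to 1.53) and 1.56 (1.35 to 1.81) in the next, 2.16 (1.90 to 2.44) in the one after and 3.61 (3.26 to 3.98) in the highest. These ratios split the excess by class and do not compare densities of sequence with similar background. Ends had more peaks per Mb in every class. The ratio was greatest in the highest class, above 1.73 fragments, where 33.2% of peaks at the ends fell, against 19.1% in the rest. The part of background in the excess was not tested.

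Within classes of background, median pileups differed by no more than 3 fragments, while shares of wide peaks stayed apart. Median pileup was 45 at the ends, against 45 in the rest, in the highest class and 17 against 15 in the lowest. The share of peaks of 1 kb or more was 31.3% at the ends (26.9 to 35.9), against 19.9% in the rest (18.7 to 21.1), in the highest class. In the lowest class it was 3.46% at the ends (8 of 231, 1.51 to 6.71), against 0.604% in the rest (26 of 4302, 0.395 to 0.884). The intervals were apart in all 5 classes, but the classes match background only roughly. The highest class runs from 1.73 to 37.4 fragments. Its peaks under 1 kb had a median background of 2.52 at the ends, against 2.20 in the rest, and its wider peaks 2.99 in both. Median width was 380 bp at the ends, against 382 bp in the rest, in the lowest class. It was higher at the ends in the other 4, from 434.5 bp, against 404 bp, to 774 bp, against 653 bp.

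**Figure D5:**
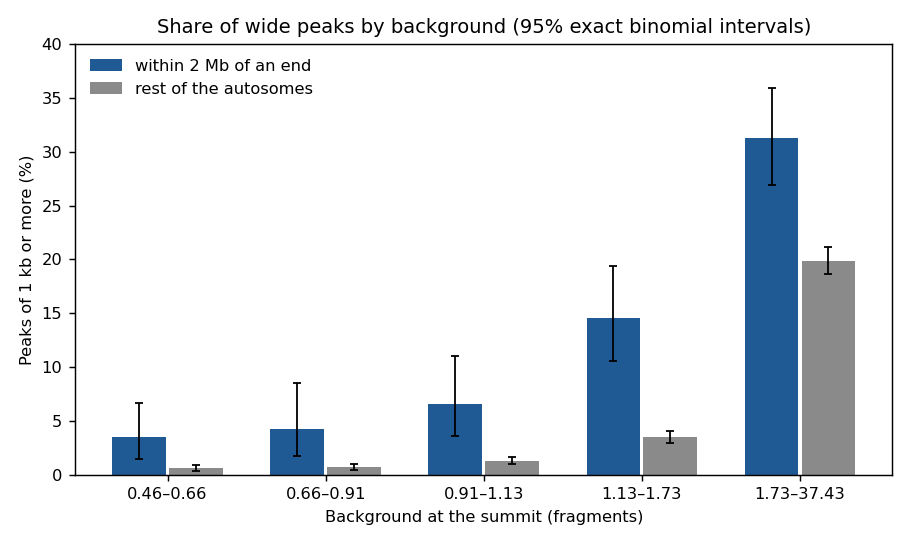
Share of peaks of 1 kb or more (%, with 95% exact binomial intervals) in 5 classes of background at the summit (fragments), within 2 Mb of an end (blue) and in the rest of the autosomes (grey). The share at the ends runs from 3.46% in the lowest class to 31.3% in the highest and is above that of the rest in each class.

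Chromosomes 8, 16, 19 and 20, which have an arm of raised background, were also taken apart. Their 8 ends had 19.5 peaks per Mb, against 13.7 in the rest of the same chromosomes (ratio 1.43, 1.27 to 1.61). The median background there was 1.26 at the ends, against 1.42 in the rest. The group was named for its background, so the raised value in its rest is no separate finding. On the other autosomes the 31 ends had 16.3 peaks per Mb, against 7.41 in the rest (ratio 2.20, 2.06 to 2.35), with a median background of 1.26 at the ends, against 0.944. Peaks of 1 kb or more made up 15.2% at these ends, against 4.43% in the rest. The difference between these groups of chromosomes was not tested, and single ends departed from the pooled values, with a median background of 1.89 in 8p and 1.09 in 19p.

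Lists of ends gave little further order. The 11 ends named as gene-rich from general knowledge (1p, 4p, 8q, 9q, 11p, 16p, 17q, 19p, 20q, 21q and 22q) had a median of 17 peaks per Mb, against 17.3 over all 39 ends. Of these, 9 stood above the rest of the autosomes by their interval, against 29 of 39 in all, and they ranged from 9.73 in 1p to 26.4 in 11p. The 4 ends of arms described as gained in MCF10A (1q, 5q, 8q and 19q) had a median of 12.8, from 6.32 in 1q to 21.6 in 19q, and 2 of 4 stood above the rest. Their median background was 1.42 fragments, against 1.26 over all ends. More copies in the library and more 8-oxodG cannot be told apart here.

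Spacing followed density. The median distance between neighbouring summits was 27780 bp at the ends (24974 to 30969), against 65462 bp in the rest (63905 to 67039), and 36343 bp from 2 to 10 Mb. Ratios of medians were 0.424 against the rest and 0.764 against those 8 Mb. Distances of no more than 10 kb made up 25.02% at the ends (313 of 1251), against 13.8% in the rest. The share between 10 and 50 kb was 41.9% at the ends, against 29.5%, and that between 1 and 5 kb 14.1%, against 6.39%. Below 1 kb it was 2.08% (26 of 1251), against 1.41%. Shortest medians were in 12q (10228 bp), 14q (12723 bp) and 7p (13907 bp), and longest in 3p (232107 bp), 18p (220924 bp) and 9p (209953 bp).

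Close pairs and long empty stretches occurred side by side. The closest pair was on 11p, at 632498 to 632742 and 632816 to 633056, with summits 231 bp apart and pileups of 41 and 34. The longest distances were 724519 bp on 1q, 642256 bp on 14q, 641280 bp on 1p, 640673 bp on 3p and 585318 bp on 17q. Of these, that on 1p contained 150000 bp and that on 17q 65000 bp of assembly gap. Of 312 windows of 250 kb, 30 had no peak, and the fullest had 15, on 7p (1250 to 1500 kb from the end), 12q (1000 to 1250 kb) and 16q (1750 to 2000 kb). Windows on 5p, 10q and 14q followed with 14 each.

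The end of 14q held the runs with the most peaks among the ends. Runs of at least 5 peaks with summits no more than 10 kb apart numbered 6 over all ends and held 3.02% of their peaks, against 45 runs with 1.47% of peaks in the rest, where the longest had 18 peaks. These run limits were chosen after the map of peaks was seen. Both leading runs lay within 14q32.33. One of 9 peaks covered 23.1 kb (105099976 to 105123036) and the other of 8 peaks 22.8 kb (105220484 to 105243235). Peaks took up 45.04% and 40.3% of these spans, and 5 of the 9 and 3 of the 8 were 1 kb or wider.

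Within the first 14q run the pileup ranged from 32 to 139 and the fold from 9.31 to 30.3, and in the second from 33 to 118 and from 8.36 to 33.0. The median background was 2.99 and 2.53 fragments, above the median of all ends. From the last peak near these runs, at 105303594, the next lay 642256 bp further out, with no assembly gap between. The inner Mb of 14q thus held 33 of its 38 peaks. As background, the outermost band of 14q, 14q32.33, carries the immunoglobulin heavy-chain locus, whose constant-region genes include duplicated blocks. Its position on hg18 was not checked, and reads shared between duplicated blocks were not tested. The other runs were 7 peaks on 16q over 37.98 kb (from 87573614), 2 runs of 5 on 12q and 1 of 5 on 7p.

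Similar imbalance appeared in 22q, with 5 peaks in the outer and 37 in the inner Mb, in 16q (11 and 37) and in 12q (15 and 38). The opposite held in 4q (25 and 10), 9q (23 and 12) and 17p (20 and 9). On 17p the outermost 250 kb alone had 13 peaks, the most of any end in that stretch, with a median pileup of 17 and a median fold of 8.90, both below the medians over all ends.

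Tall peaks near the ends reached 176 fragments. The highest fold was at a peak on 8p (chromosome 8, 556498 to 557200), 703 bp wide, with a pileup of 176, a background of 1.76 and a fold of 64.1, rank 14 in the whole list. A peak on 20q (60586332 to 60587769) had the same pileup over a background of 3.15, with a fold of 42.7. Next by pileup was another peak on 8p (1767733 to 1769181), at 169 fragments and a fold of 28.5, followed by 149 on 1p (from 1519951, fold 36.2) and 147 on 5p (from 1251295, fold 36.5). By fold, the peaks after the first lay on 7p (883063 to 884056, fold 63.8), 10q (from 134550284, 59.6) and 19p (from 1628945, 59.4, and from 1095435, 59.2). The peak on 7p stood over a background of 0.598, so that a pileup of 101 gave nearly the fold of the taller peak on 8p.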

How the data were processed

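8-oxodG DIP-seq of 3 samples was deposited as 1 list of 23641 peaks on hg18. The submitters' processing notes name BWA, SAMtools and bedtools. Caller, control, pooling and read numbers: not given in the sources used here. Per the file headers, the deposited columns are position, width, summit, pileup signal, p-value, fold enrichment and q-value. The decimal points of the authors' other columns (p, fold and q, the first and last as −log10) had been lost. They were restored from the Poisson relation between pileup, fold and p, within 0.01 for 23640 rows; the remaining 1 was no member. Background is (pileup + 1) / fold − 1. The authors' fold describes and ranks peaks within this list. The procedure was tested on simulated data.

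Contigs came from IRanges 2.36.0 and bands from circlize 0.4.16 (R 4.3.3). Python 3.11.15, numpy 2.4.6, pandas 2.3.3, scipy 1.17.1 and matplotlib 3.10.9 were used. No peak passed an hg18 chromosome end, and 1 member lay in an assembly gap. Density is peaks per Mb of contig. With 1 pooled list, no test was run. Poisson, conditional and binomial 95% intervals were computed, and a count of 0 was taken to allow 3.

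The ends and lists were chosen with earlier results of these data known. Ends named were the 6 of highest and lowest density and the extremes of each measure. Peaks named were the 5 tallest, of highest fold, widest and nearest an end, and those at the limit, with the fullest windows. Alternatives changed the reach, the origin and placement, joining, stricter lists, chromosomes and the rest. Sequences of the peaks are not shown.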

Additional observations from a re-analysis of the deposited data

How the results depend on the processing

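The alternatives run all kept more and closer peaks at the ends than in the rest, with density ratios from 1.19 to 2.59 and spacing ratios from 0.366 to 0.764. Ratios are ends over rest, and the cause of each shift was not tested. With a reach of 1 Mb there were 574 peaks, a density ratio of 1.85, a variance-to-mean ratio of 3.28, and ratios of 1.15 for width, 1.08 for pileup, 1.19 for background, 0.977 for fold enrichment and 2.51 for the share of peaks of 1 kb or more. With 4 Mb these were 2714 peaks, density 2.26, variance-to-mean 11.1 and pileup 1.29. At equal relative spread the variance-to-mean ratio rises with the mean count. Its values at different reaches therefore do not show whether ends became more unequal. Peaks of at least median fold numbered 668, with pileup 1.13, background 1.18 and fold 0.994. Peaks of at least median pileup numbered 813, with density 2.59, pileup 1.05, background 1.35, fold 0.885, spacing 0.374 and wide share 2.48. Both lists were cut on fold or pileup, so their ratios for pileup, background and fold follow in part from the cut. Without chromosomes 8, 16, 19 and 20 the ratios were 2.20 for density, 1.304 for pileup, 1.33 for background and 0.366 for spacing. Against 2 to 10 Mb from the same ends they were 1.19 for density, 1.11 for width, 1.03 for pileup, 1.14 for background, 0.983 for fold, 0.764 for spacing and 1.66 for wide share, with 11 ends above. Averaged over 5 background classes, width was 1.12 and pileup 1.05. This alternative, equal weighting of ends (density 2.08), leaving out the outermost 250 kb (2.14) and the share of wide peaks were chosen after seeing the data. Fold enrichment thus crossed 1, also with a reach of 1 Mb and against 2 to 10 Mb, where no peak was cut on fold or pileup. Its own interval already reached 1 (0.995 to 1.06). Against the rest of the same arms, also chosen after seeing the data, the density ratio was 1.82. Leaving out single ends moved the density ratio between 2.03 (without 7p) and 2.12 (without 18p). No sample could be left out. No paired analysis was possible because the list holds 1 group with no value per sample. Counts of 7 to 60 peaks limit what single ends can show.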

Other observations

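How regular the spacing was also differed between ends. The coefficient of variation of the distances between neighbouring summits had a median of 1.18 over 39 ends. It was highest in 14q (2.47) and 22q (2.18) and lowest in 9p (0.630), which has 7 distances. Among the peaks at the ends, pileup had a rank correlation of 0.705 with width and 0.613 with background, descriptions across peaks of 1 list.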
